A study of Ovis aries with 15 samples.

Results

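The promoter of UCP1 (uncoupling protein 1, gene identifier ENSOARG00000012510) was followed through 3 histone marks in perirenal fat of merino lambs and fetuses. It was taken as the row named UCP1 in each promoter table, 1 row of 13222 for H3K27ac, 1 of 12922 for H3K4me3 and 1 of 6334 for H3K27me3, and it is 1 of the 1910 promoters present in all 3 tables out of 18460 present in any (10.3%). The lambs were about 80 days old by their stage label (89 ± 7 days in the growth protocol), and the fetuses were at 132 ± 1 days of gestation, with term at 150 ± 3 days. All animals were wild type and untreated, although the titles of the lamb libraries carry the tag VEH, whose meaning the labels do not give. H3K27ac and H3K27me3 were each measured in 2 lambs and 2 fetuses, and H3K4me3 in 3 lambs and 2 fetuses. The animals numbered 1 and 2 of a stage carry the same codes in every mark. The tissue was whole frozen fat, so each library averages over all its cell types.

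UCP1 is the carrier in the inner mitochondrial membrane of brown fat that lets protons back into the matrix without making ATP, so that respiration gives heat. Its transcription is switched on by noradrenaline through beta-adrenergic receptors, cyclic AMP and the coactivator PPARGC1A, and it is held down in white fat by corepressor complexes. The perirenal depot of sheep is rich in brown fat before birth and becomes white fat in the weeks after it. Acetylation of H3K27 (H3K27ac) goes with promoters and enhancers in use, H3K4me3 with promoters in use or ready for it, and H3K27me3 is laid down by Polycomb complexes at genes kept silent.

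The promoter reads per library numbered 5109478 to 6257855 in lambs and 5061861 to 6080999 in fetuses for H3K27ac. For H3K27me3 they numbered 324662 to 407567 in lambs and 429387 to 430345 in fetuses. The H3K4me3 libraries were uneven, with 9988031 reads in lamb 1, 2476065 in lamb 2 and 2542840 in lamb 3, against 11139935 and 17541582 in the fetuses. By rank correlation over all promoters the H3K27ac libraries resembled their own stage (Spearman's rho 0.920 to 0.940) more than the other stage (0.756 to 0.822), as did those of H3K27me3 (0.805 to 0.920 within a stage and 0.736 to 0.768 between stages). The H3K4me3 libraries did not separate by stage: lamb 1 correlated at 0.956 with fetus 1 and at 0.945 with fetus 2, above both the fetal pair (0.919) and lamb 1 with lamb 2 (0.902). Changes also ran with level. The median H3K4me3 change was 1.14 on the log2 scale among the lowest 3231 promoters by level and -0.53 among the highest 3231, and the H3K27ac medians were 0.28 among the lowest 3306 and -0.31 among the highest 3306. UCP1 was therefore also set against promoters of like level in each mark.

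H3K27ac at UCP1 fell in lambs to 52.1% of the fetal level. The scaled promoter value (the deposited signal brought to a common library size) was 140 in lamb 1 and 146 in lamb 2, against 269 in fetus 1 and 281 in fetus 2. Both lambs lay far below both fetuses, and the animals of a stage lay close together, with means of 143 ± 4.42 in lambs and 275 ± 8.29 in fetuses (SD, n = 2 each). Lamb minus fetus was -0.94 on the log2 scale (SE 0.15, 95% interval -1.25 to -0.63, limma, adjusted p = 0.000242). The test called 17.7% of all H3K27ac promoters lower and 11.4% higher in lambs, and the UCP1 fall ranked 205 of 13222 by size.

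The reads behind those values were 329 and 279 in the lambs and 581 and 496 in the fetuses. Their exact Poisson intervals at 95% were 294 to 367 and 247 to 314 reads in lambs, and 535 to 630 and 453 to 542 reads in fetuses, and cover counting error only; they take the value of 1 step as 1 read, which the sources used here do not state. The promoter thus lay in the lower part of the table in lambs and in the upper part in fetuses: it stood above 20.7% and 25% of all H3K27ac promoters in the lambs, and above 73.5% and 76.0% in the fetuses. An exact permutation test of 2 lambs against 2 fetuses cannot give a two-sided p below 0.333, so the adjusted p draws on the spread of all promoters. The authors' deposited table gives UCP1 a fold change of -1.92 in the lamb-over-fetus direction, with an adjusted p of 1.72e-07.

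**Figure D1:**
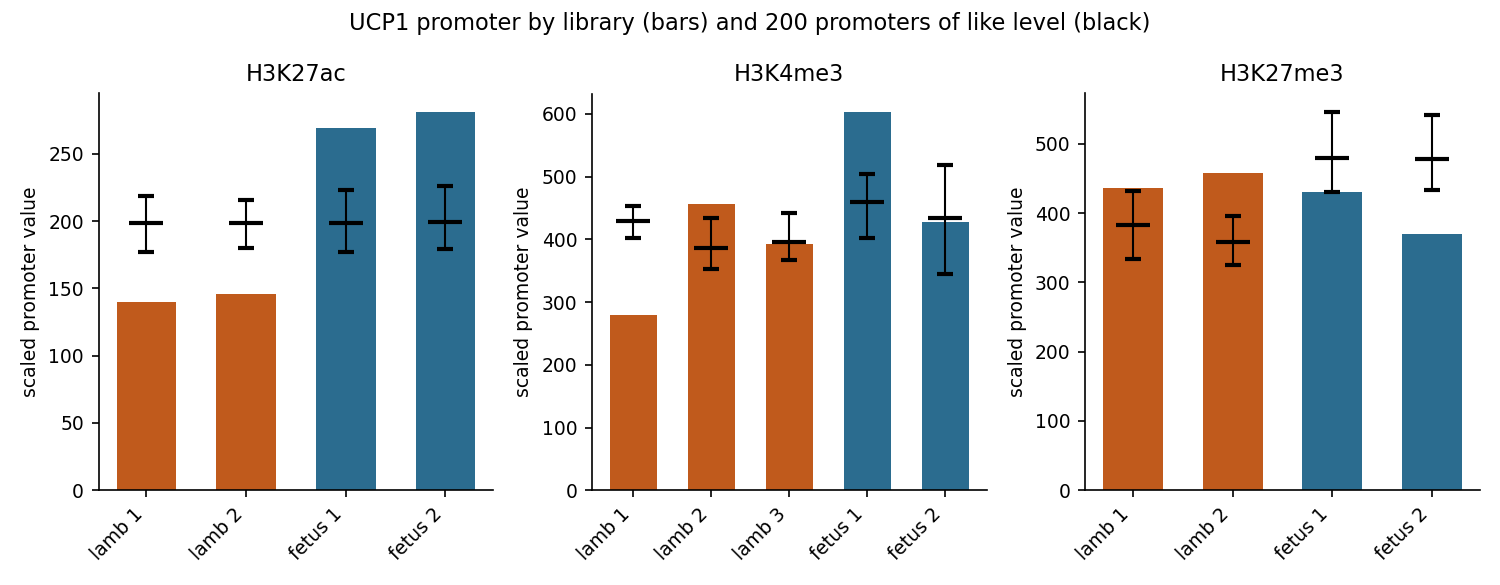
Scaled promoter value of UCP1 (bars, axis from 0) in each lamb library (orange) and fetal library (blue) for 3 marks. The black lines give the median and the quartiles of the 200 promoters nearest to UCP1 in mean level; in H3K27ac the UCP1 bars lie below that range in both lambs and above it in both fetuses.

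Promoters of the same H3K27ac level did not move as far. Among the 200 promoters nearest in mean level (100 on each side), the median change was -0.01 on the log2 scale, the quartiles were -0.28 and 0.23, and the lowest change was -0.92, so that none of the 200 fell by more than UCP1. With 100 such promoters the count was also 0, and with 400 it was 5. UCP1 exceeded 2 and 3 of the 200 in lambs 1 and 2, against 196 and 194 of them in fetuses 1 and 2. These like-level values describe the table and carry no test. After each library's dependence on level was subtracted (a lowess curve of span 0.3), the UCP1 change was -0.97 (SE 0.14, 95% interval -1.28 to -0.66, limma, adjusted p = 0.000954), and 10% of all promoters were called lower under that correction.

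In H3K4me3 the lambs and fetuses overlapped at UCP1. The scaled value was 280 in lamb 1, 456 in lamb 2 and 392 in lamb 3, against 602 in fetus 1 and 428 in fetus 2. Lamb 2 lay above fetus 2, and the stage means of 376 ± 89.3 in lambs (SD, n = 3) and 515 ± 123 in fetuses (SD, n = 2) differed by little more than those spreads. Lamb minus fetus was -0.46 on the log2 scale (SE 0.29, 95% interval -1.04 to 0.12, limma, adjusted p = 0.229). The interval therefore holds both no change and a fall as large as that of H3K27ac. The value was -0.22 without fetus 1, -0.71 without fetus 2 and -0.23 without lamb 1. Of all H3K4me3 promoters, 1.9% were called lower and 8.33% higher in lambs.

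Depth differed within the lambs. UCP1 had 466 H3K4me3 reads in lamb 1, 189 in lamb 2 and 168 in lamb 3, against 1118 and 1054 in fetuses 1 and 2. It stood above 39.99%, 62.1% and 52.5% of the H3K4me3 promoters in lambs 1, 2 and 3, and above 69.1% and 55.3% in fetuses 1 and 2. The lowest lamb is thus the deep library, lamb 1, and the 2 shallow ones lie near or above fetus 2. The exact two-sided permutation test gave p = 0.3, where the smallest possible value is 0.1. After level correction the difference was -0.36 (95% interval -0.96 to 0.24, limma, adjusted p = 0.557), or -0.04 without lamb 1, -0.58 without fetus 2 and -0.55 without lamb 2, in a setting where limma called none of the 12922 promoters although 1724 had an unadjusted p under 0.05, and where another form of the correction (cyclic loess) called 91. Of the 200 like-level promoters, whose median change was -0.12, 23 had a lower change than UCP1. The authors' deposited table lists a fold change of -1.38 with an adjusted p of 0.232.

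In H3K27me3 the UCP1 promoter stood high at both stages. The scaled value was 436 in lamb 1 and 458 in lamb 2, against 430 in fetus 1 and 370 in fetus 2. The lambs lay just above both fetuses, with means of 447 ± 15.5 in lambs and 400 ± 42.3 in fetuses (SD, n = 2 each). The difference of 0.16 on the log2 scale did not pass the test (SE 0.20, 95% interval -0.26 to 0.58, limma, adjusted p = 0.614), where 4.42% of H3K27me3 promoters were called higher and 8.83% lower in lambs. UCP1 reached 2.46 and 2.58 times the median promoter of the table in lambs, and 2.72 and 2.39 times in fetuses. The reads were 133 and 111 in lambs and 128 and 110 in fetuses, the thinnest counts of the 3 marks. The authors' deposited table lists a fold change of 1.12 with an adjusted p of 0.665.

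Strong H3K27me3 promoters were more often called lower than higher: among the 1584 strongest by level, which include UCP1, 22 promoters were called higher and 403 lower in lambs, with a median change of -0.37. The 200 promoters nearest to UCP1 had a median change of -0.38 (quartiles -0.62 and -0.15), and 186 of them had a lower change than UCP1. UCP1 exceeded 151 and 183 of the 200 in lambs 1 and 2, against 46 and 9 of them in fetuses 1 and 2. After level correction UCP1 was higher in lambs by 0.52 (SE 0.20, 95% interval 0.10 to 0.94), but limma's adjusted p of 0.125 over the table does not pass the threshold of 0.05. Under that correction 2.21% of all H3K27me3 promoters were called higher.

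**Figure D2:**
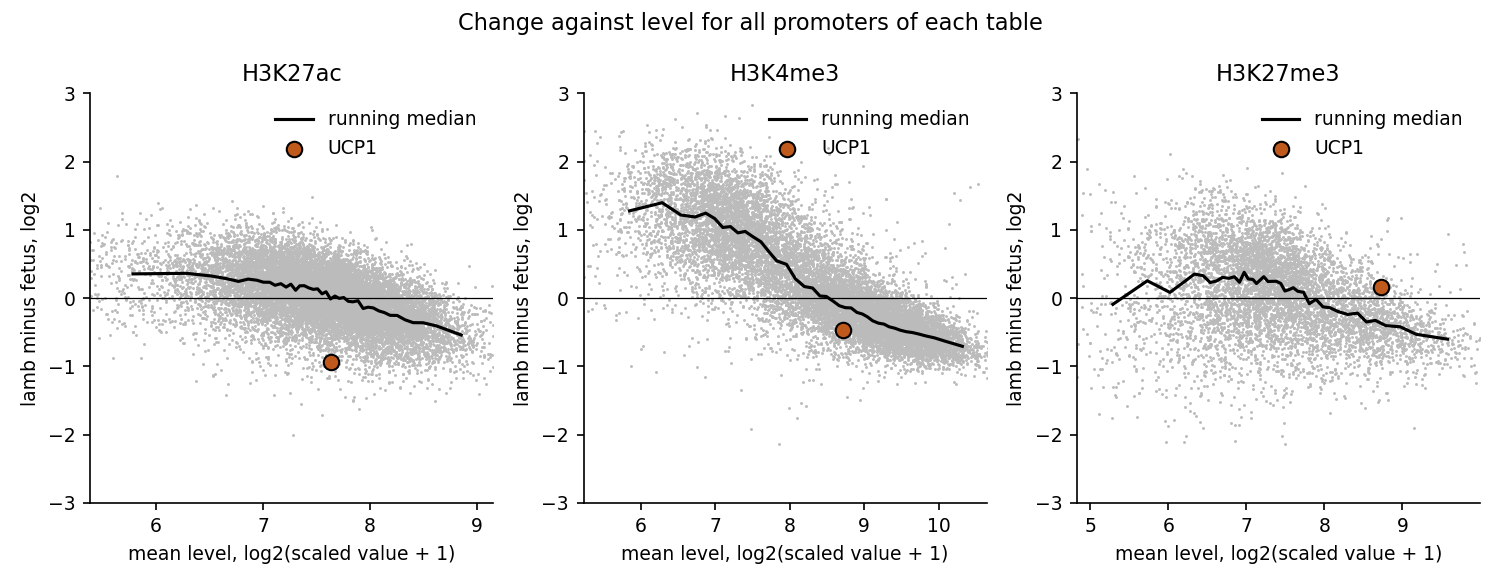
Change of each promoter (lamb minus fetus, log2, vertical axis) against its mean level (log2 of the scaled value plus 1, horizontal axis) for each mark, with the running median as a black line and UCP1 as an orange point; the axes leave out the most extreme promoters. UCP1 lies below the running median in H3K27ac (-0.94) and H3K4me3 (-0.46) and above it in H3K27me3 (0.16).

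The marks were then compared within animals, since animals 1 and 2 of each stage were measured in all 3. The difference of log2 values H3K27ac minus H3K27me3 at UCP1 was -1.63 in lamb 1 and -1.64 in lamb 2, against -0.67 in fetus 1 and -0.40 in fetus 2. Both lambs lay below both fetuses. The promoter stood above 4.57% and 3.79% of the 2297 promoters with both marks in the lambs, and above 35.3% and 43.6% in the fetuses. The shift between stages was -1.10 (SE 0.31, 95% interval -1.77 to -0.43, limma, adjusted p = 0.0177), where the median promoter shifted by 0.47 and 2.83% were called in the same direction as UCP1. This comparison was added after the values had been seen, and the call is lost when fetus 2 (adjusted p = 0.0972), lamb 1 (0.0643) or lamb 2 (0.0607) is left out, and with the deposited scaling (0.0501).

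The same difference against H3K4me3 did not separate the stages. H3K27ac minus H3K4me3 was -0.998 in lamb 1 and -1.64 in lamb 2, against -1.16 in fetus 1 and -0.61 in fetus 2, so lamb 1 lay between the fetuses. The shift was -0.43 (SE 0.37, 95% interval -1.17 to 0.30, limma, adjusted p = 0.751), from -0.75 (without lamb 1) to -0.11 (without lamb 2) with 1 animal left out, and 0.089% of 10109 promoters were called in the negative direction. That H3K27ac passed the test at UCP1 and H3K4me3 did not is therefore no measured difference between the marks. H3K4me3 minus H3K27me3 was -0.64 and -0.00 in lambs 1 and 2, against 0.48 and 0.21 in fetuses 1 and 2, with a shift of -0.67 (SE 0.63, limma, adjusted p = 0.484) beside a median of 0.86 over 3522 promoters, of which 0.0568% were called in the negative direction. With 1 animal left out it ran from -0.98 (without lamb 2) to -0.35 (without lamb 1).

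**Figure D3:**
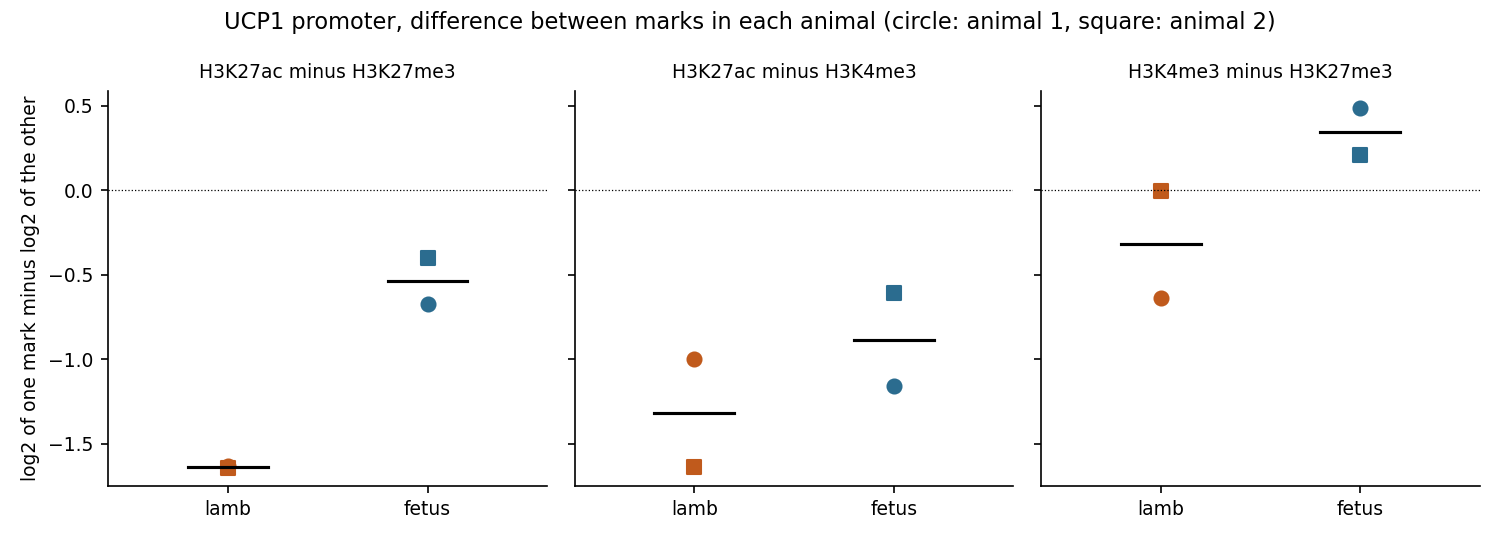
Difference between 2 marks at the UCP1 promoter in each animal (log2 of the scaled values, vertical axis), for lambs (orange) and fetuses (blue); the bar is the mean of the 2 animals. H3K27ac minus H3K27me3 lies at -1.63 and -1.64 in lambs, below -0.67 and -0.40 in fetuses, while H3K27ac minus H3K4me3 overlaps.

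The levels of the marks at UCP1 were also ranked together. Among the 1910 promoters with a row in every table, UCP1 stood above 37.1% for H3K27ac, 51.2% for H3K4me3 and 98.3% for H3K27me3 in the mean of the lambs. In the mean of the fetuses it stood above 90.3%, 68.8% and 87.2%. H3K27ac was called lower at 167 of the 1910 (8.74%), UCP1 among them. Of these, 2 were also called higher in H3K27me3, a call made at 4.42% of all promoters of that mark. The share with that call among the 1910 was not counted. UCP1, which did not pass that test, is not 1 of the 2.

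Regulators of UCP1, genes of the adrenergic signal, brown fat partners and relatives of UCP1 were read from 5 lists of 106 genes beside UCP1 itself. Of these, 92 have a row in some table. In H3K27ac, 20 of 82 listed promoters were lower and 4 higher in lambs by limma (24.4% lower, beside 17.7% of all promoters), and their median change was -0.03 against 0.02 over all. After level correction 16 were lower and 5 higher, where 10% of all promoters were called lower and 8.52% higher. Of the 20, 14 remained called without lamb 1, 12 without lamb 2 and 14 when libraries were scaled by their reads in peak regions; none of the 4 remained without lamb 1, without lamb 2 or with the deposited scaling. Only 3 listed promoters fell by more than UCP1, namely LHX8, MAPK14 and AKAP1.

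Among 21 activators of UCP1 transcription with an H3K27ac row, 6 fell in lambs and none rose, beside 17.7% lower and 11.4% higher of all promoters, and after level correction 5 were lower and 1 higher. PPARGC1A, the coactivator that couples cold to UCP1 transcription, had 244 and 271 in lambs, against 439 and 506 in fetuses. It fell by 0.87 on the log2 scale (SE 0.13, limma, adjusted p = 0.00012). DIO2, the deiodinase that makes active thyroid hormone inside brown fat cells, had 152 and 164 in lambs, against 268 and 303 in fetuses (-0.85, SE 0.15, adjusted p = 0.000461). LHX8, a LIM homeobox factor linked to brown fat in mice, had 114 and 136 in lambs, against 206 and 303 in fetuses (-0.996, SE 0.19, adjusted p = 0.00101). The others were the deacetylase SIRT1 (-0.84), the Mediator subunit MED1 (-0.64) and the coactivator NCOA1 (-0.61), and NCOA1 lost its call after level correction (adjusted p = 0.305). MED1 lost its call in a fit with 1 library left out (-0.75 to -0.51). PRDM16, the zinc finger protein that sets brown fat identity in mice, has a row only in H3K27me3, with 183 and 103 in lambs, against 77.3 and 80.8 in fetuses (0.79, SE 0.39, adjusted p = 0.179).

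Of 15 repressors with an H3K27ac row, 4 fell and 2 rose in lambs, beside 17.7% lower and 11.4% higher of all promoters. After level correction 3 were lower and 2 higher. NR1D1 (REV-ERBα), a clock repressor of UCP1 in mice, had 227 and 254 in lambs, against 485 and 414 in fetuses (-0.90, SE 0.13, limma, adjusted p = 0.000113). The nuclear receptor NR2F2 (-0.72), the corepressor TLE3 (-0.72) and the retinoblastoma protein RB1 (-0.46) also fell. Each of them lost its call in a fit with 1 library left out. Their changes then ran from -0.80 to -0.62 for NR2F2, -0.83 to -0.60 for TLE3 and -0.62 to -0.30 for RB1. RB1 lost its call after level correction (adjusted p = 0.22). ZNF423, which holds white fat cells back from the brown programme in mice, had 227 and 228 in lambs, against 167 and 155 in fetuses (0.50, SE 0.15, adjusted p = 0.0206). The ZNF423 call was lost without lamb 1, without lamb 2 and with the deposited scaling. With 1 library left out its change ran from 0.46 to 0.55.

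Along the adrenergic signal, 6 of 21 H3K27ac promoters fell and none rose, beside 17.7% lower and 11.4% higher of all promoters, and after level correction 6 were lower and 1 higher. ADRB3, the beta receptor of fat cells, had 180 and 135 in lambs, against 254 and 232 in fetuses (-0.64, SE 0.17, limma, adjusted p = 0.00847), and lost its call without lamb 2 (adjusted p = 0.221). MAPK14, the p38 kinase that carries the signal to PPARGC1A, had 138 and 146 in lambs, against 269 and 294 in fetuses (-0.98, SE 0.15, adjusted p = 0.000188). PLIN1, a coat protein of lipid droplets, had 298 and 310 in lambs, against 518 and 647 in fetuses (-0.93, SE 0.13, adjusted p = 8.6e-05). AKAP1, a mitochondrial anchor of protein kinase A (-0.97), the alpha receptor ADRA1A (-0.75) and the kinase subunit PRKAR2B (-0.56) fell as well. Each of them also lost its call in a fit with 1 library left out. Their changes then ran from -1.11 to -0.83 for AKAP1, -0.88 to -0.61 for ADRA1A and -0.64 to -0.47 for PRKAR2B. AKAP1 was weak, and its mean in lambs stood above 1.86% of H3K27ac promoters.

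The other brown fat genes and the relatives of UCP1 gave mixed values. Of 17 brown fat partners with an H3K27ac row, 2 fell and 1 rose in lambs, beside 17.7% lower and 11.4% higher of all promoters. COX7A1, a respiratory chain subunit of heart and brown fat (-0.45), and PANK1, an enzyme of coenzyme A synthesis (-0.65), fell and EPSTI1 rose (0.65). Each of these 3 lost its call after level correction. CIDEA, a lipid droplet protein of brown fat, had 153 and 154 in lambs, against 144 and 138 in fetuses, a difference of 0.12 (SE 0.18, limma, adjusted p = 0.643). UCP3, the muscle relative of UCP1, had 211 and 171 in lambs, against 132 and 136 in fetuses (0.50, SE 0.18, adjusted p = 0.042, or 0.179 after level correction). UCP2, its relative of wide expression, had 406 and 356 in lambs, against 332 and 305 in fetuses (0.26, SE 0.12, adjusted p = 0.127), and passed after level correction (0.61, adjusted p = 0.00478), with column totals, quantile normalization or peak-read scaling, and without fetus 1 (adjusted p 0.0015 to 0.0438). With the deposited scaling kept, UCP2 stood at -0.063. Neither relative has an H3K27me3 row. The carriers SLC25A4, which exchanges ADP for ATP (-0.64), and SLC25A11, which carries oxoglutarate (-0.80), fell. Of 8 listed relatives and carriers with an H3K27ac row, 2 were thus lower and 1, UCP3, was higher, beside the same shares of all promoters.

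**Figure D4:**
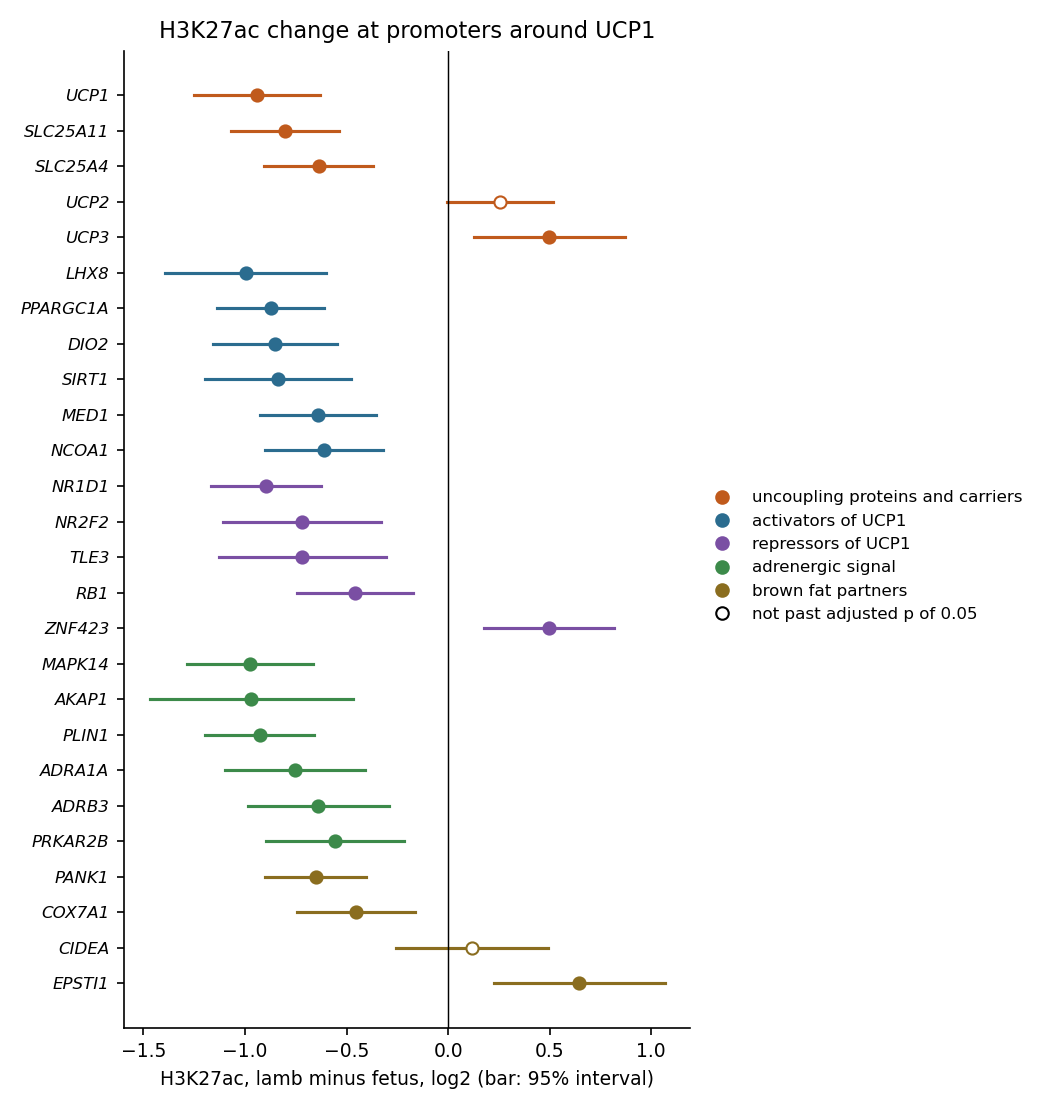
H3K27ac change (lamb minus fetus, log2, horizontal axis) with its 95% interval at UCP1, at named listed promoters past an adjusted p of 0.05 (filled) and at UCP2 and CIDEA (open), coloured by list. Of those drawn beside UCP1, 20 lie left of 0 with filled points and 3 lie right of it, and UCP1 at -0.94 is near the left end.

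In the other marks fewer listed promoters passed. In H3K4me3, 4 of 75 were lower and 3 higher in lambs (limma, beside 1.9% lower and 8.33% higher of all promoters), with a median of -0.21 against 0.00 over all. DIO2 had 236, 229 and 203 in lambs, against 432 and 490 in fetuses (-1.04, adjusted p = 0.0308). ADRB3 (-0.82), PLIN1 (-1.21) and the adenosine carrier SLC29A1 (-0.96) also fell, FOXO1 (1.51), S100B (1.71) and EPSTI1 (1.74) rose, and PPARGC1A missed the threshold (-0.76, adjusted p = 0.0596), which it passed without fetus 1 (-1.16, adjusted p = 0.0002), while it stood at -0.37 without fetus 2. None of the 7 remained called without lamb 3, and 1 did without lamb 2. After level correction none of the 7 was called, in a setting where none of all 12922 promoters was. The corrected rises were 0.61 for FOXO1, 0.87 for S100B and 0.61 for EPSTI1. The corrected falls were -1.28 for DIO2, -0.55 for ADRB3, -0.88 for PLIN1 and -0.67 for SLC29A1. In H3K27me3, 3 of 28 were lower and none higher (beside 8.83% and 4.42% of all promoters), with a median of -0.17 against 0.02 over all. These were LHX8 with 400 and 552 in lambs, against 941 and 875 in fetuses (-0.95, adjusted p = 0.00275), ESRRG (-0.81) and the phosphodiesterase PDE4B (-1.06). After level correction LHX8 stood at -0.40 (adjusted p = 0.192) and ESRRG at -0.69 (adjusted p = 0.12), both without a call. None of the 3 remained called without fetus 1 or without lamb 2.

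Markers of 8 cell types were read beside UCP1. In whole tissue, fewer cells that carry a mark and less of the mark per cell cannot be told apart. Among adipocyte markers 4 of 9 fell in H3K27ac and none rose, beside 17.7% lower and 11.4% higher of all promoters (3 lower after level correction), and their summed scaled value was 1996 to 2092 in lambs and 2902 to 3217 in fetuses. The median change of the 9 was -0.36. PLIN1 (-0.93, SE 0.13) and FABP4 (-0.93, SE 0.15) fell about as far as UCP1 (-0.94, SE 0.15), and differences between these genes were not tested. Among lymphocyte markers 4 of 7 rose and none fell (3 higher after level correction), with sums of 1275 to 1430 in lambs and 938 to 947 in fetuses. Among stromal markers 5 of 9 fell and 1 rose (3 lower and 2 higher after level correction), with sums of 2270 to 2398 in lambs and 3147 to 3508 in fetuses. COL3A1, 1 of the 5, fell by more than UCP1 (-1.32, SE 0.14, limma, adjusted p = 1.24e-05, and -0.85 after level correction). The other lists had 2 of 7 endothelial markers lower, 1 higher and 1 lower of 5 macrophage markers, likewise of 5 smooth muscle and of 2 skeletal muscle markers, and 1 of 3 adrenal markers higher. That adrenal marker, NR5A1, was weak (65.0 and 74.3 in lambs, against 29.2 and 25.5 in fetuses). After level correction no endothelial marker was called. The corrected calls were 2 higher for macrophage, 1 higher and 1 lower for smooth muscle, 1 lower for skeletal muscle and 2 higher for adrenal markers. The part of cell composition in the UCP1 fall was not tested. PPARG, the master regulator of fat cells, has no row in any of the tables.

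The gene order around UCP1 was taken from RefSeq (ARS-UI_Ramb_v3.0, used for order only, since the reads were mapped to Oar_v3.1). Of 5 protein-coding neighbours on each side, 6 have a row in some table. TBC1D9, the next gene on 1 side, rose in H3K27ac with 201 and 154 in lambs, against 100 and 92.8 in fetuses (0.86, SE 0.20, limma, adjusted p = 0.00482), and lost its call without lamb 1 (adjusted p = 0.316). ELMOD2, the next gene on the other side, whose RefSeq entry overlaps that of UCP1, had 233 and 271 in lambs, against 280 and 365 in fetuses (-0.34, SE 0.14, adjusted p = 0.0824). Whether its promoter window shares reads with that of UCP1 is not known, as no label or header states the width of the window.

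Further out, ZNF330 fell in H3K27ac (-0.46, limma, adjusted p = 0.0117), but not after level correction (-0.03, adjusted p = 0.881). RNF150 (-0.22), IL15 (0.32) and CLGN (0.19) did not pass. No neighbour had an H3K27ac change as negative as that of UCP1; these differences between genes were not tested. In H3K4me3 UCP1 (-0.46) lay among its neighbours ZNF330 (-0.66), RNF150 (-0.35) and ELMOD2 (-0.58), none of which passed. ZNF330 and ELMOD2 stood high in fetus 2 (1487 and 1158) but not in fetus 1 (688 and 561), which lay below lamb 1 (737 and 621). At UCP1 fetus 1 was the higher fetus (602, against 428 in fetus 2). Apart from UCP1, CLGN alone has an H3K27me3 row, with 131 and 128 in lambs, against 188 and 222 in fetuses (-0.66, SE 0.30, adjusted p = 0.146).

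**Figure D5:**
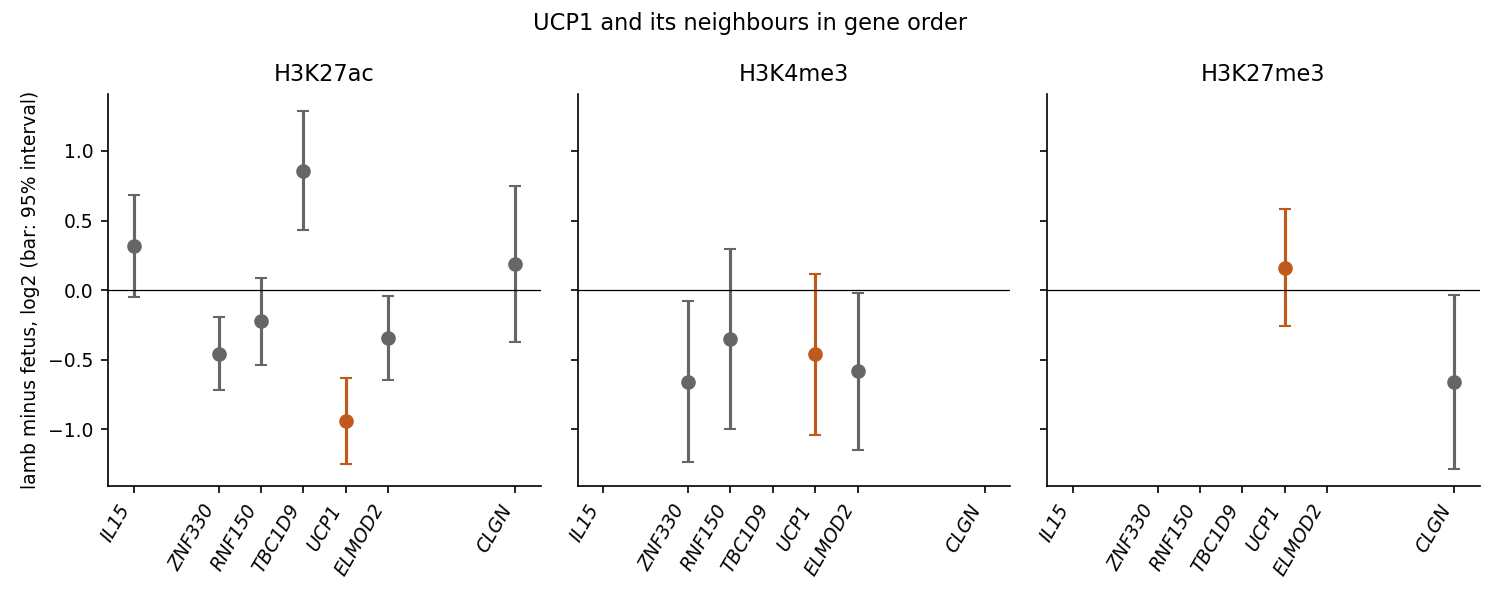
Change (lamb minus fetus, log2, vertical axis) with its 95% interval at UCP1 (orange) and at its RefSeq neighbours with a row (grey), in gene order along the horizontal axis with equal steps, for each mark. In H3K27ac UCP1 at -0.94 is flanked by TBC1D9 at 0.86 and ELMOD2 at -0.34.

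The promoters most like UCP1 were sought among the other 1909 with a row in every table, by the root mean square difference of the log2 values over 13 libraries, each mark centred on its own mean. The nearest were GSC, a homeobox factor of early development (0.154), POPDC3, a membrane protein of muscle (0.156), ITGA7, the laminin receptor subunit of muscle (0.189), ADAMTS20, a secreted protease (0.192), and SLC22A3, a cation carrier that also takes up noradrenaline (0.203), where the median distance was 0.540. Their Pearson correlations with UCP1 over the 13 libraries were 0.90, 0.92, 0.88, 0.86 and 0.86, given as a description, since the libraries share their stages and marks. The choice used these same values, so the following changes are no support.

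In H3K27ac, POPDC3 had 119 and 115 in lambs, against 244 and 277 in fetuses, and GSC had 109 and 118 in lambs, against 210 and 208 in fetuses. ADAMTS20 had 98.1 and 114 in lambs, against 190 and 233 in fetuses, and SLC22A3 had 84.1 and 87.3 in lambs, against 169 and 157 in fetuses. ITGA7 had 195 and 188 in lambs, against 267 and 273 in fetuses. The log2 changes of these 5, which were chosen on these same values, ran from -0.49 for ITGA7 to -1.15 for POPDC3. None of the listed genes was among the 5. The search took only promoters with a row in every table, so listed genes such as PPARGC1A and DIO2, which have no H3K27me3 row, could not appear.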

How the data were processed

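Native chromatin was immunoprecipitated with 10 µg of antibody and sequenced as 50 bp single-end reads, which were mapped to Oar_v3.1 with CLC Genomics Workbench 7.0, per the labels. The submitters' processing notes also list MACS, edgeR and bedtools 2.19.0, and do not say what each was used for. The values the authors deposited per promoter are a scaled signal. In each library they are whole multiples of a fixed step (99.969% or more of them lie within 0.02 reads of a whole number), and value divided by step is called reads here, although what the scale factor is relative to is not stated. The deposited peak tables hold whole-number counts, used only for library totals. The authors also deposited a signed fold change (a score, lamb over fetus) and p-values per promoter; in the H3K27me3 table those 2 headers are exchanged, as the values show. The highest deposited value of a promoter over the libraries is never under 50.2, and weaker promoters are not analysed here. A blank row of the H3K27me3 table was left out. Input chromatin, pooled within a stage, has no column in these tables, and nothing was subtracted for it.

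Libraries were brought to a common size by the product of column total and TMM factor (edgeR 4.0.16), taken relative to its mean over libraries. Values were tested as log2(value + 1) with limma 3.58.1 (trend, stage as the only term, R 4.3.3), adjusted by Benjamini-Hochberg over each whole table, with a threshold of 0.05; fold changes are on that log scale. A count test was not used, because whole reads could not be verified for the scaled values. The test was also run on simulated promoters with independent normal noise and the spreads of the fit itself. That setting meets the assumptions of the test and does not copy the uneven H3K4me3 libraries. Level correction subtracted from each library a lowess curve of its deviation against mean level. Replicates are separate animals, and a number stands for a different animal in lambs and in fetuses, so numbers do not pair. Listed genes past the test, 7 brown fat genes in any case, 5 neighbours on each side and the 5 most alike promoters are named, the last by distance; 1 listed gene past the test enters the counts but is not reported here by name. UCP1, the lists and the naming rule were chosen with earlier results of these data known.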

Additional observations from a re-analysis of the deposited data

How the results depend on the processing

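The H3K27ac fall at UCP1 kept its direction and its call in all 13 alternatives (-1.26 to -0.70, limma, adjusted p 8.28e-09 to 0.00209), and so did its level-corrected value in all 10 (-1.06 to -0.86, adjusted p up to 0.0134). The H3K4me3 change of UCP1 was negative in all 15 and passed only with the deposited scaling (-1.75, adjusted p = 0.0284), where the median of all promoters was itself -1.28; with 1 library left out it ran from -0.71 to -0.22, and its level-corrected value from -0.58 to -0.04. The H3K27me3 change stayed positive and uncalled in all 13 (0.05 to 0.53), and its level-corrected value in all 10 (0.41 to 0.62, adjusted p 0.101 to 0.696). H3K27ac minus H3K4me3 reversed with the deposited scaling (0.47). H3K27ac minus H3K27me3 lost its call with the deposited scaling (-1.34) and with the replicate block (-1.10, adjusted p = 0.0605), and ranged from -1.24 to -0.96 with 1 animal left out. Other causes of these changes were not tested.

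The called promoters (1508 higher and 2341 lower of 3849 in H3K27ac, 1077 and 245 of 1322 in H3K4me3, 280 and 559 of 839 in H3K27me3) depend on the scaling. H3K27ac gave 167 higher and 4012 lower with the deposited scaling, 2314 and 1789 with column totals, and 3946 and 967 with peak reads (a scaling chosen after seeing the data). H3K4me3 gave 55 and 5623 of 5678 with the deposited scaling, 654 and 1331 of 1985 with peak reads, 44 in all with quantile normalization, and 0 with lambs 2 and 3 left out (102 at an unadjusted p under 0.05). H3K27me3 gave 540 with the deposited scaling, 102 with quantile normalization, 435 and 368 with column totals, and 1050 and 116 with peak reads. With 1 library left out the counts were 1177 to 5846, 12 to 5680 and 0 to 1405 in the order of marks above; the lows are without lamb 1, lamb 3 and lamb 2 (the last with 1797 at an unadjusted p under 0.05). The median change of all promoters moved to -0.30, 0.11 and 0.25 in H3K27ac with the deposited scaling, column totals and peak reads, to 0.13 and -0.38 in H3K4me3 with the last 2, and to 0.13 and 0.39 in H3K27me3.

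With the replicate number as a block the UCP1 calls in the single marks were unchanged, 3 H3K4me3 promoters were called and none of the 7 listed ones remained; same-numbered animals deviated with correlations of 0.28, -0.39 and 0.10 in the order of marks above. Uncalled named values changed sign with the deposited scaling (H3K27ac CIDEA -0.20, UCP2 -0.063, IL15 -0.0028, CLGN -0.13; H3K4me3 CIDEA -1.04), with quantile normalization (H3K27ac CIDEA -0.039, CLGN -0.052; H3K4me3 CIDEA -0.47, UCP2 0.10; H3K27me3 CIDEA -0.095), with peak reads (H3K27ac RNF150 0.012, H3K4me3 CIDEA -0.14), with lambs 2 and 3 left out (H3K4me3 RNF150 0.33), and with 1 library left out (H3K27ac CLGN -0.24 to 0.64, H3K4me3 CIDEA -0.29 to 0.77, H3K27me3 CIDEA -0.15 to 0.39). The planned edgeR and DESeq2 tests on reads were not run, because a check of the deposited values did not verify them as whole reads. UCP1 rests on 110 to 133 reads a library in H3K27me3, the thinnest of the marks.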
